A study of Homo sapiens with 5 samples.

Results

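The BCL2 family of apoptosis regulators was examined in PC-3, an established human prostate cancer cell line, through 10 of its genes: BCL2, BCL2L1, MCL1, BCL2L11, BBC3, PMAIP1, BAX, BAK1, BID and BIK. The genes were chosen by name, and every probe set annotated with 1 of these symbols alone was taken on all 5 arrays of the study. This gave 30 probe sets for 9 of the 10 genes, among 41091 such probe sets for 19775 genes in all. BBC3, which encodes PUMA, was not analysed here, because its 1 probe set also carries the symbols of other genes.

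The arrays held total RNA of untreated PC-3 cells with 1 array per sample. One culture was grown flat (2D) and 1 as spheroids, clusters that grow in 3 dimensions, and neither is labelled as carrying a hairpin. The labels describe dish culture alone, also for the spheroid sample. The other 3 samples expressed a short hairpin RNA, against GFP as the control (shGFP) or against the pseudokinase gene TRIB1 (shTRIB1-1 and shTRIB1-2, with the genotype given as TRIB1 depletion). Its aims, per the design text, were to set 3D against 2D growth and to find TRIB1-dependent genes. Nothing in the labels says whether hairpin cells were clones or pools, or whether samples came from separate cultures. The gap between the shTRIB1-1 and shTRIB1-2 arrays may thus be technical, and it also holds any difference between these hairpins. Neither array is a replicate of the other, and n = 2 below counts hairpins. The 2D, spheroid and shGFP conditions have 1 array each, and differences between single arrays have no replicate check. In bulk RNA, fewer cells with a transcript and less transcript per cell cannot be told apart.

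Proteins of the BCL2 family decide whether the outer membrane of mitochondria stays sealed. BCL2, BCL-XL (from BCL2L1) and MCL1 keep it sealed, BAX and BAK (from BAK1) form the pores that release cytochrome c, and the BH3-only proteins sense damage and either block the first set or activate the second. BIM (from BCL2L11), NOXA (PMAIP1), BID, BIK and PUMA are BH3-only proteins. BIM and NOXA are largely set at the level of transcription, whereas BID is cut by caspase-8 and MCL1 is a protein with fast turnover. PC-3 cells are known to lack functional p53, the classic activator of the PUMA, NOXA and BAX genes.

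Values are given as levels, which are the log2 of the intensity the authors obtained with RMA, and differences are on the same log2 scale, where 1 stands for 2-fold. A level of 6 (an intensity of 64) was taken as the mark below which a signal lies near background, and a gene entered a comparison if it reached that level on any compared array. Each gene is represented first by the probe set with the highest mean level, and for the members the other probe sets follow. Values and rankings of genes outside the members are from that probe set alone unless stated. Levels of different genes were not compared, since probe sets differ in how brightly they hybridise.

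The keratins KRT8, KRT18 and KRT19 and the cadherin CDH1, markers of epithelium, were at levels between 9.39 and 13.19 on all arrays. KLK3, a luminal prostate gene that PC-3 is known to lack, was listed at 6.90 on every array. A signal somewhat above the level of 6 may thus still be background, for instance that of BID in spheroid, at 6.69. Of 8 blood, endothelial and fibroblast markers measured, 6 were below a level of 6 on every array. The endothelial marker PECAM1 was at 7.57 in 2D and 9.53 in spheroid while CDH5, which defines endothelium, was at 3.48 or below. The summed intensity of the 8 was 388 in 2D, 985 in spheroid and 260 to 309 on the hairpin arrays. PECAM1 makes up most of the spheroid sum, and the next highest marker there was HBB, at 6.15. The probe set of the targeted gene TRIB1 was at 11.97 with shGFP, at 11.91 with shTRIB1-1 and at 11.76 with shTRIB1-2. In 2D it was at 11.04 and in spheroid at 11.23, so both arrays labelled TRIB1 depletion read above the arrays without a labelled hairpin. Depletion is therefore hardly visible in this signal, and directions below are those of the labelled arrays. For the actin control, the 5′ signal divided by the 3′ signal, a sign of RNA or labelling quality, was 0.131 in spheroid, 0.184 in 2D and 0.436 to 0.445 on the hairpin arrays. The part of these values in the differences below was not tested.

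Spheroid cells had lower levels of BID and, less so, of BCL2L1 and BIK than 2D cells, and a higher level of PMAIP1. BAX, BAK1 and BCL2 differed little. Of the 8 members at a level of 6 or more on the 2D or spheroid array, 1 was at least 2-fold lower, against 5.23% of all 10570 genes compared, and 0 were at least 2-fold higher, against 5.05%. By direction alone 6 were lower (50.9% of all genes) and 2 were higher (47.3%). The median difference of these 8 was -0.19, and -0.17 over all 9 genes with BCL2 included, beside -0.0083 for all genes compared. With 1 array per condition no test was made.

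On the arrays labelled shTRIB1-1 and shTRIB1-2, BCL2L11 and BIK were higher than on the shGFP array and BCL2L1 was lower, each by less than 2-fold in the mean of the hairpins. All 9 genes reached the level filter, and 0 were 2-fold higher or 2-fold lower on both arrays, against 0.361% and 0.0855% of 10522 genes. By direction alone 3 members were higher on both (25% of all genes) and 5 were lower on both (34.7%). The 5 include BCL2, which reached the filter only on the shGFP array, so the filter favoured a lower direction for it. The median of the members' mean differences, BCL2 included, was -0.098, beside -0.027 for all genes. With a level filter of 8, which 6 members passed and BCL2 did not, the members' median was 0.22. Limma, fitted over all genes with Benjamini-Hochberg adjustment, called 0 members and 0 genes (0%) at an adjusted p under 0.05. At an unadjusted p under 0.05 it held 0 members and 3.38% of genes. The fit has 1 residual degree of freedom, from the gap between the hairpin arrays. Each SD below holds no spread of the shGFP array.

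**Figure D1:**
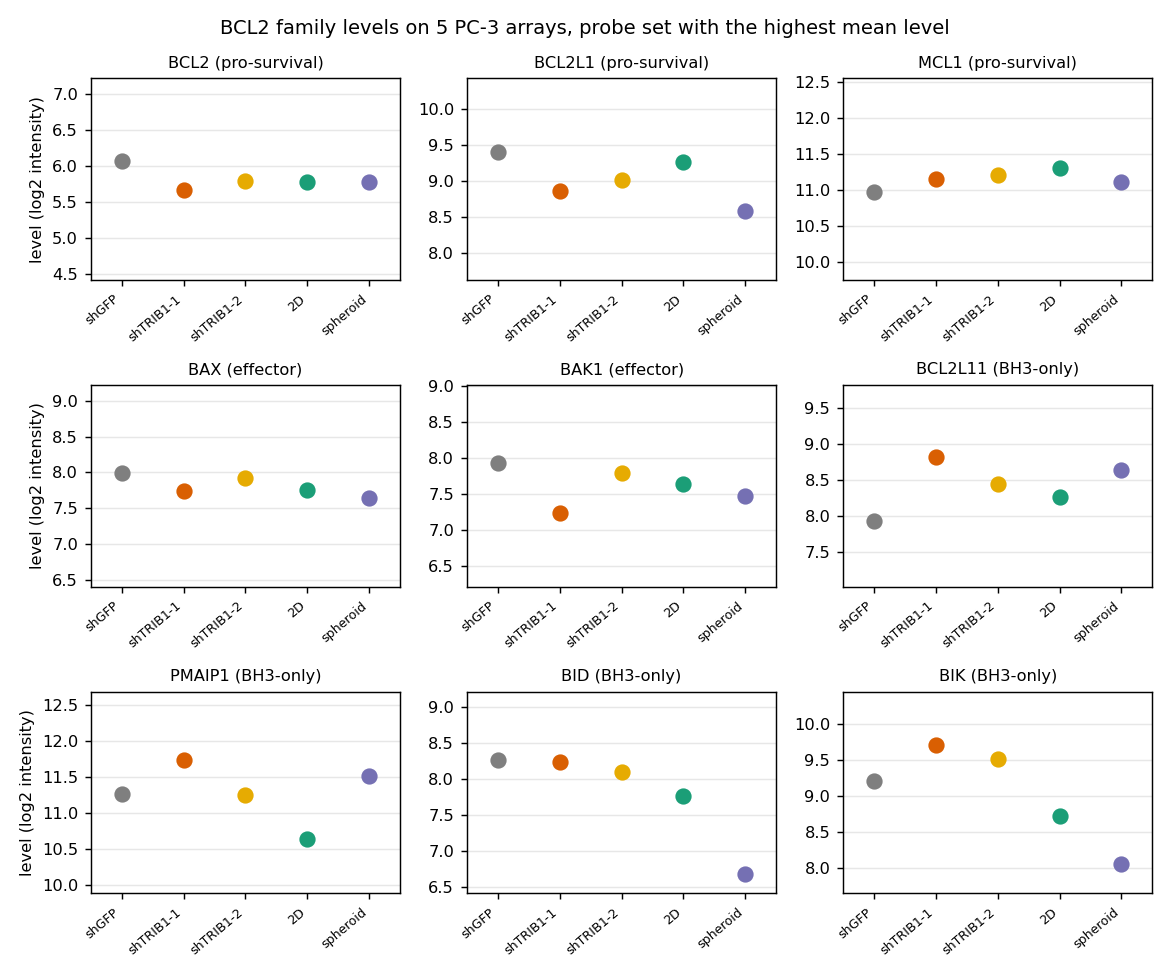
Level (log2 of the RMA intensity) of each of the 9 measured BCL2 family genes on the 5 arrays, 1 point per array, from the probe set with the highest mean level; every panel spans the same number of log2 units but is centred on its own gene. BID and BIK are lowest in spheroid, at 6.69 and 8.06, PMAIP1 is lowest in 2D at 10.63, and BCL2L11 is lowest with shGFP at 7.93.

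Among the pro-survival genes, BCL2 gave a weak signal everywhere. Its probe set 207004_at was at 6.06 with shGFP, 5.67 with shTRIB1-1, 5.80 with shTRIB1-2 and 5.78 in both 2D and spheroid. The shGFP array alone passed the level of 6, and the difference between spheroid and 2D was 0. Of the other 3 probe sets of BCL2, 2 stayed below 6 on every array. The remaining one, 203685_at, read 5.75, 5.46 and 6.45 on the shGFP, shTRIB1-1 and shTRIB1-2 arrays and 5.22 and 5.75 in 2D and spheroid. It was thus high with shTRIB1-2 alone, by 0.70 over shGFP, while 207004_at was lower there by 0.27. The probe sets of BCL2 therefore give opposite directions for that array, near background.

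BCL2L1, the gene of BCL-XL, was at 9.41 with shGFP, 8.86 with shTRIB1-1, 9.01 with shTRIB1-2, 9.27 in 2D and 8.59 in spheroid on its strongest probe set, 212312_at. The control arrays shGFP and 2D were the highest and lay 0.14 apart, and the hairpin arrays and the spheroid array all lay below both. Spheroid was lower than 2D by 0.68 (1.60-fold), and 10.6% of genes had a difference as low or lower. Against shGFP the hairpin arrays differed by -0.55 and -0.40, on average -0.48 ± 0.11 (SD, n = 2; limma adjusted p = 0.951). Of all genes, 5.80% had a mean as low or lower.

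The other 3 probe sets of BCL2L1 were also lower in spheroid, by between 0.14 and 0.85. On the hairpin arrays 3 of 4 probe sets were lower on both arrays than with shGFP. The exception, 231228_at, was lower with shTRIB1-1 by 0.35 and equal to shGFP with shTRIB1-2. BCL2L1 makes a long pro-survival and a short pro-death splice form. The form that each probe set reads was not analysed here.

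MCL1 was at 10.97 with shGFP, 11.15 with shTRIB1-1, 11.21 with shTRIB1-2, 11.31 in 2D and 11.12 in spheroid on 200797_s_at. These values lie within 0.34 of each other, which is also the gap between the control arrays. The hairpin arrays were both above shGFP, by 0.18 and 0.24 (mean 0.21 ± 0.04, SD, n = 2; limma adjusted p = 0.951), and both below 2D.

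A second bright probe set of MCL1, 200798_x_at, gave another picture of the spheroid array. It was at 9.86, 10.10 and 9.87 with shGFP, shTRIB1-1 and shTRIB1-2, at 10.47 in 2D and at 9.23 in spheroid, so that spheroid was lower than 2D by 1.24. Probe set 214056_at lay on the same side, with 6.42 in 2D and 5.17 in spheroid, lower by 1.25 but below the level of 6 in spheroid. All 6 probe sets of MCL1 were lower in spheroid, by 0.04 to 1.25, and the median of the 6 differences was -0.32. Taking each array's median level over the 6 probe sets first gave -0.71. The direction was thus shared, whereas its size ranged from nearly none to more than 2-fold. MCL1 is also spliced into long and short forms, which were not told apart here.

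Across all members, 19 probe sets reached a level of 6 on the 2D or spheroid array, of which 3 were at least 2-fold lower in spheroid (4.93% of all 18417 probe sets compared) and 0 were at least 2-fold higher (5.52%). The 3 are a pair from MCL1 and one from BID. By direction, 15 of the 19 were lower (50.3% of all probe sets) and 4 were higher (47.8%), and probe sets of 1 gene are not independent. Of the 24 probe sets that reached the level on the hairpin or shGFP arrays, 0 were 2-fold higher on both labelled arrays (0.334% of all). On the shTRIB1-1 array, 1 of the 24, from BCL2L11, passed 2-fold. Of all probe sets, 4.01% passed 2-fold there in either direction, whatever their value with shTRIB1-2.

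**Figure D2:**
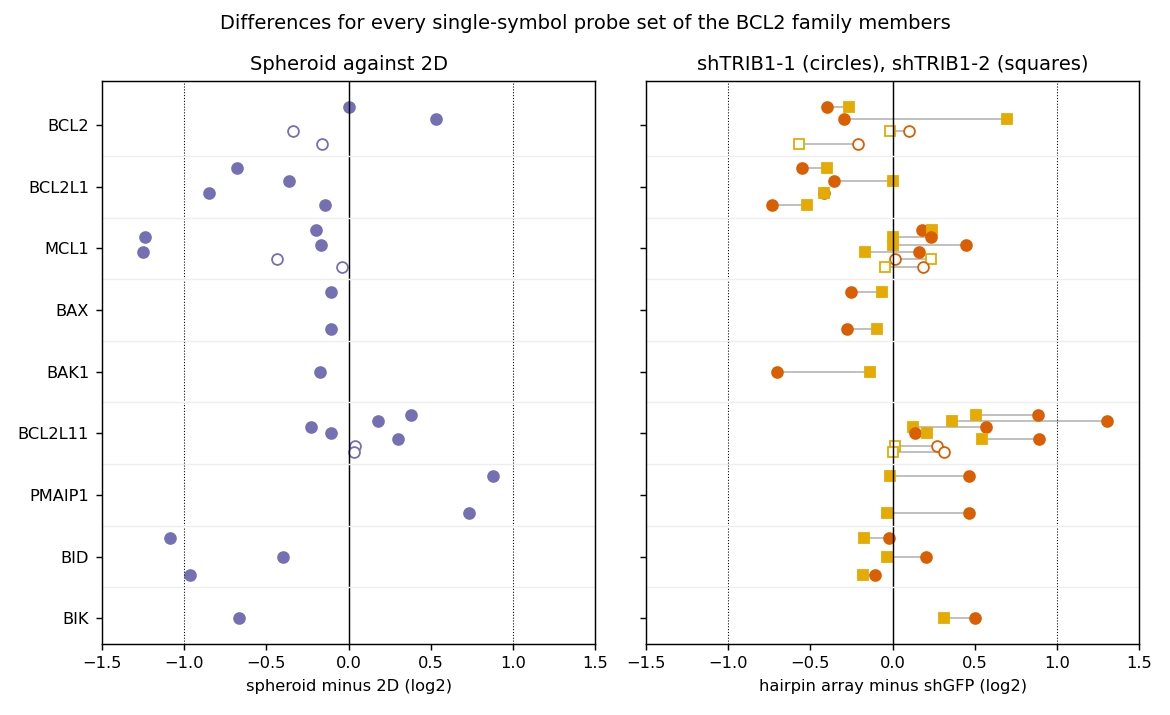
Log2 difference of every single-symbol probe set of the 9 genes, 1 row of points per gene with the probe set of the highest mean level on top; left, spheroid minus 2D, and right, shTRIB1-1 (circles) and shTRIB1-2 (squares) minus shGFP, joined by a grey line. Open symbols mark the 6 probe sets below a level of 6 on every array and dotted lines mark 2-fold; all probe sets of BCL2L1, MCL1, BID, BAX, BAK1 and BIK lie left of 0 in the left panel.

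The pore-forming effectors moved little with growth form. BAX was at 7.99 with shGFP, 7.74 with shTRIB1-1, 7.93 with shTRIB1-2, 7.76 in 2D and 7.65 in spheroid on 211833_s_at. Spheroid was lower than 2D by 0.11, less than the 0.24 between the control arrays, and the second probe set gave the same difference of -0.11. The hairpin arrays were below shGFP by 0.25 and 0.06 (mean -0.16 ± 0.13, SD, n = 2; limma adjusted p = 0.958).

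BAK1 has 1 probe set and was at 7.92 with shGFP, 7.22 with shTRIB1-1, 7.78 with shTRIB1-2, 7.63 in 2D and 7.46 in spheroid. Its lowest value, with shTRIB1-1, was not shared by the other hairpin. The hairpin arrays differed from shGFP by -0.70 and -0.14, on average -0.42 ± 0.40 (SD, n = 2; limma adjusted p = 0.958), and the SD is nearly as large as the mean. Spheroid was lower than 2D by 0.17, within the 0.29 between the control arrays.

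Among the BH3-only genes, BID had the largest difference of the 9 genes between spheroid and 2D on the brightest probe sets. It was at 8.27 with shGFP, 8.25 with shTRIB1-1, 8.10 with shTRIB1-2, 7.77 in 2D and 6.69 in spheroid on 211725_s_at. The spheroid array stood below the other 4, by 1.08 (2.12-fold) against 2D, and 4.64% of genes had a difference as low or lower. The other probe sets of BID were lower in spheroid by 0.97 and 0.40, the first of them from 6.73 to 5.76. The median of the 3 differences was -0.97. Taking each array's median level over the 3 probe sets first gave -0.40, and the 2-fold call was lost either way. Against the mean of 2D and shGFP it differed by -1.33, since shGFP was above 2D by 0.50.

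The hairpins against TRIB1 left BID close to shGFP, with differences of -0.02 and -0.17 (mean -0.098 ± 0.11, SD, n = 2; limma adjusted p = 0.958). The 3 hairpin arrays lay between 8.10 and 8.27, all above 2D. Caspase-8, which cuts BID into its active form, is described with the death receptor genes below.

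BIK, a BH3-only protein at the endoplasmic reticulum, was at 9.20 with shGFP, 9.71 with shTRIB1-1, 9.51 with shTRIB1-2, 8.72 in 2D and 8.06 in spheroid on its 1 probe set. It had the widest range of the members, 1.65 over the 5 arrays, and the hairpin arrays were all above the arrays without a hairpin. Spheroid was lower than 2D by 0.67 (1.59-fold), which 10.8% of genes matched or passed. The hairpins against TRIB1 were above shGFP by 0.50 and 0.31 (mean 0.41 ± 0.14, SD, n = 2; limma adjusted p = 0.951), and 7.49% of genes had a mean as high or higher. The control arrays themselves lay 0.48 apart, with shGFP above 2D.

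PMAIP1, the gene of NOXA, which binds MCL1, was the member with the largest positive difference between spheroid and 2D. It was at 11.27 with shGFP, 11.73 with shTRIB1-1, 11.25 with shTRIB1-2, 10.63 in 2D and 11.51 in spheroid on 204285_s_at. The 2D array was the low one, and the other 4 lay between 11.25 and 11.73. Spheroid was above 2D by 0.88 (1.84-fold), as 6.58% of genes were or more, and the second probe set gave 0.73. The shGFP array was above 2D by 0.64 and 0.75 on the same probe sets, where both differences are set against the same 2D array.

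With the hairpins against TRIB1, PMAIP1 was above shGFP by 0.47 on the array labelled shTRIB1-1 and differed by -0.02 on the array labelled shTRIB1-2 (mean 0.22 ± 0.34, SD, n = 2; limma adjusted p = 0.958). Both probe sets gave this split, and the hairpin arrays differed from each other on PMAIP1.

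BCL2L11, the gene of BIM, had the largest mean difference from shGFP of the members with the hairpins against TRIB1, on the brightest probe sets. It was at 7.93 with shGFP, 8.81 with shTRIB1-1, 8.44 with shTRIB1-2, 8.26 in 2D and 8.64 in spheroid on 225606_at. The shGFP array was the lowest of the 5, and 2D came next. The hairpin arrays exceeded shGFP by 0.88 and 0.51, on average 0.69 ± 0.26 (SD, n = 2; 1.62-fold; limma adjusted p = 0.951), and 2.77% of genes had a mean as high or higher. Against the 2D array the same hairpin arrays were higher by 0.55 and 0.18, a mean of 0.36. This mean was below those of BIK (0.89), PMAIP1 (0.86) and BID (0.40). From each array's median level over its 7 probe sets, BCL2L11 differed from shGFP by 0.17, less than BIK (0.41) and PMAIP1 (0.22), while the median of the 7 differences was 0.34.

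All 7 probe sets of BCL2L11 were higher with shTRIB1-1 than with shGFP, by 0.13 to 1.30, and 6 of 7 were higher on both labelled arrays. The other, 208536_s_at, was equal to shGFP with shTRIB1-2 and below a level of 6 throughout. The widest difference was that of 1558143_a_at, at 7.18 with shGFP, 8.48 with shTRIB1-1 and 7.54 with shTRIB1-2. The array labelled shTRIB1-2 was above shGFP by at most 0.55 on any probe set. In spheroid, BCL2L11 was above 2D by 0.38, beside a gap of 0.33 between the control arrays, and its probe sets ranged from -0.23 to 0.38, with 5 higher and 2 lower. From each array's median level over the probe sets the sign turned, to -0.10.

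**Figure D3:**
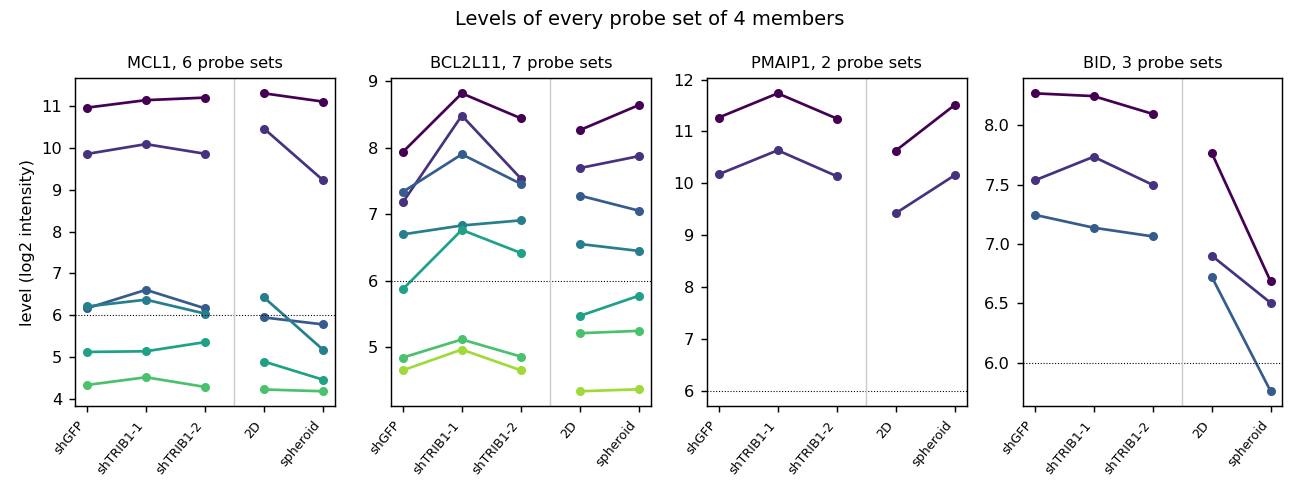
Level (log2 of the RMA intensity) of every probe set of MCL1, BCL2L11, PMAIP1 and BID on the 5 arrays; each colour is 1 probe set, lines join the arrays of one comparison, and the dotted line marks a level of 6. The probe sets of PMAIP1 run in parallel, 6 of 7 probe sets of BCL2L11 are highest with shTRIB1-1 among the hairpin arrays, and those of MCL1 differ in how far spheroid lies below 2D.

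The promoters of PMAIP1 and BCL2L11 are shown because on the brightest probe sets these were the BH3-only genes with the largest positive differences, PMAIP1 for spheroid against 2D and BCL2L11 for the hairpins against shGFP, and because transcription factors known to act on them were measured on the same arrays. Each is the stretch of 250 bases before the RefSeq transcription start, from GRCh38.p14, plus strand, written 5′ to 3′. PMAIP1 lies at chr18:59899746-59899995 and BCL2L11 at chr2:111120664-111120913. Capitals mark the core of the cyclic AMP response element, which ATF4 and its relatives can bind, in PMAIP1 and a forkhead site, which FOXO proteins can bind, in BCL2L11.
PMAIP1: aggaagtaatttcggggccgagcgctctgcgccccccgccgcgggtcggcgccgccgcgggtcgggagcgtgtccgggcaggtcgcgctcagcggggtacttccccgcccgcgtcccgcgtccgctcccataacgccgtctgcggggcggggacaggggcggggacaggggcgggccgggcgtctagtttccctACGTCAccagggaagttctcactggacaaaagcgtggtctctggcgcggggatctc
BCL2L11: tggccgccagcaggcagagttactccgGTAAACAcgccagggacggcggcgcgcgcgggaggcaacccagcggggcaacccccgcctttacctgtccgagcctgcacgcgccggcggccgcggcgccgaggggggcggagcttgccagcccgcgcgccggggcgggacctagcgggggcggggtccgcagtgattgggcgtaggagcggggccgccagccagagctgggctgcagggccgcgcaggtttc

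For the search, 6 motifs were sought on both strands of the 250 bases in the 8 members that have a promoter entry, MCL1 and BIK being the 2 without. These hold 13 entries, since BID has 5 and BCL2L1 has 2. The core TGACGT was in PMAIP1 alone, 51 to 56 bases before the start and read on the minus strand, and 7.1% of all 35116 promoters hold it. The forkhead site GTAAACA was in BCL2L11 alone, 217 to 223 bases before the start, and 2.98% of promoters hold it. The E-box CACGTG, which MYC can bind, was in 3 of the 8 members, BBC3, BAX and BID, and in 6.34% of promoters. By entry it was in 4 of the 13, with 4 matches in BAX. The BID entries that hold it overlap, so their matches may be the same site counted again. The AP-1 site TGANTCA was in BBC3 (6.57% of promoters), whereas the ATF4 and C/EBP composite element TGATGNAA (3.14%) and the E2F site TTTCCCGC (1.39%) were in 0 members. Matches of different motifs did not overlap. These are matches of letters and show no binding.

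The transcription factors known to act on BCL2 family genes included the largest positive differences of the wider pathway in spheroid. Of 15 listed, 13 had a probe set and 11 passed the level filter. Of the 11, 8 were higher in spheroid, 3 of them by 2-fold or more, with a median of 0.56. Over all 10570 genes compared the median was -0.0083, with 47.3% higher and 5.05% up by 2-fold or more. These values also serve as the background for the other lists below. All lists were chosen with earlier results of these data known, and whether these factors differ from other genes was not tested. DDIT3 (CHOP), which represses BCL2 and activates BIM under stress of the endoplasmic reticulum, was at 8.51 in 2D and 10.65 in spheroid. It was at 10.73 with shGFP, so its difference of 2.14 between spheroid and 2D had a counterpart of 2.22 between the control arrays. ATF3, a stress-induced repressor and activator, was at 6.70 in 2D, 8.67 in spheroid and 9.35 with shGFP, and again the 2D array was the low one.

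FOXO1, a forkhead factor held in check by AKT, was at 6.82 with shGFP, 7.60 with shTRIB1-1, 7.16 with shTRIB1-2, 6.21 in 2D and 7.40 in spheroid. Spheroid was above 2D by 1.19, and the hairpins were above shGFP by 0.78 and 0.34 (mean 0.56 ± 0.31, SD, n = 2). FOXO3, the related factor, was above 2D in spheroid by 0.61, but the hairpins differed from shGFP by -0.14 and 0.12. ATF4 was at 12.40 with shGFP, 12.13 with shTRIB1-1, 12.33 with shTRIB1-2, 11.75 in 2D and 12.31 in spheroid. Spheroid was above 2D by 0.56, beside 0.65 between the control arrays, and the hairpins were below shGFP by 0.26 and 0.065. FOXO3 and ATF4 were named after their values were seen.

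NFKB1 had the lowest difference of the 11 listed factors in spheroid, at -0.82. With the hairpins 4 of 11 factors were higher on both labelled arrays and 3 were lower on both, with 0 past 2-fold. JUN, a subunit of AP-1, had the highest mean (0.65 ± 0.01, SD, n = 2) and DDIT3 the lowest (-0.70 ± 0.32).

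The rest of the BCL2 family differed by less than 2-fold in both comparisons. All 13 other family genes had a probe set and 8 passed the filter in spheroid and 2D, 4 higher and 4 lower, with a median of 0.02. BCL2L2, the pro-survival gene of BCL-w, was at 9.36 in 2D and 9.94 in spheroid, above by 0.58, while BCL-XL was lower there. BCL2L12 was lower in spheroid by 0.90. With the hairpins against TRIB1, 1 of 8 was higher on both arrays and 4 were lower on both. BCL2L2 had the lowest mean (-0.33 ± 0.17, SD, n = 2), and BNIP3L, a mitophagy receptor, the highest (0.24 ± 0.37).

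Downstream of the mitochondria, the gene of the apoptosome scaffold was lower in spheroid on its brightest probe set, where the spheroid value lay near the background mark of 6. APAF1, which assembles caspase-9 after cytochrome c release, was at 7.64 in 2D and 6.12 in spheroid, lower by 1.52. It was at 7.43, 7.34 and 7.85 on the shGFP, shTRIB1-1 and shTRIB1-2 arrays, so the spheroid array was the low one of the 5. CASP6, an executioner caspase, was at 9.39 in 2D and 8.27 in spheroid, lower by 1.12, with shGFP at 8.65. Of the 10 apoptosome and caspase genes measured, 4 were higher and 6 lower in spheroid, with a median of -0.087, and CASP9 had the highest difference, at 0.23. With the hairpins the mean differences ran from -0.11 (VDAC2, a mitochondrial channel) to 0.16 (APAF1).

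Among inhibitors of apoptosis and their antagonists, 3 of 6 genes were higher and 3 lower in spheroid. BIRC5 (survivin), which also acts in mitosis, was at 11.27 in 2D and 8.24 in spheroid, lower by 3.03, and was below shGFP by 0.50 and 0.79 with the hairpins. XIAP, which blocks caspases directly, was above 2D by 0.81. BIRC2 had the highest mean of this list with the hairpins, at 0.10. Of 7 genes, 0 were higher and 3 were lower on both labelled arrays.

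In the death receptor pathway 5 of 8 genes were higher and 3 lower in spheroid, with a median of 0.27 and none past 2-fold. CASP8, the initiator caspase that cuts BID, was at 8.59 with shGFP, 9.11 with shTRIB1-1, 9.18 with shTRIB1-2, 8.82 in 2D and 9.38 in spheroid. It was higher in spheroid by 0.56 and on the labelled arrays by 0.52 and 0.59, and had the highest difference of the list in both comparisons, whereas the adaptor FADD was lower in spheroid by 0.69. The TRAIL receptor gene TNFRSF10B was lower with the hairpins by 0.67 and 0.19, the lowest mean of the list.

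Genes that set the turnover of the MCL1 and BIM proteins were mixed. In spheroid 5 of 9 were higher and 4 lower, with a median of 0.20. DUSP6, the phosphatase that dampens ERK, was at 10.39 in 2D and 11.74 in spheroid, higher by 1.35. USP13, a deubiquitinase that stabilises MCL1, was at 8.81 in 2D and 7.62 in spheroid, lower by 1.19. With the hairpins FBXW7, which marks MCL1 for destruction, had the highest mean difference (0.57 ± 0.33, SD, n = 2), and FBXO4 the lowest (-0.46 ± 0.03).

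**Figure D4:**
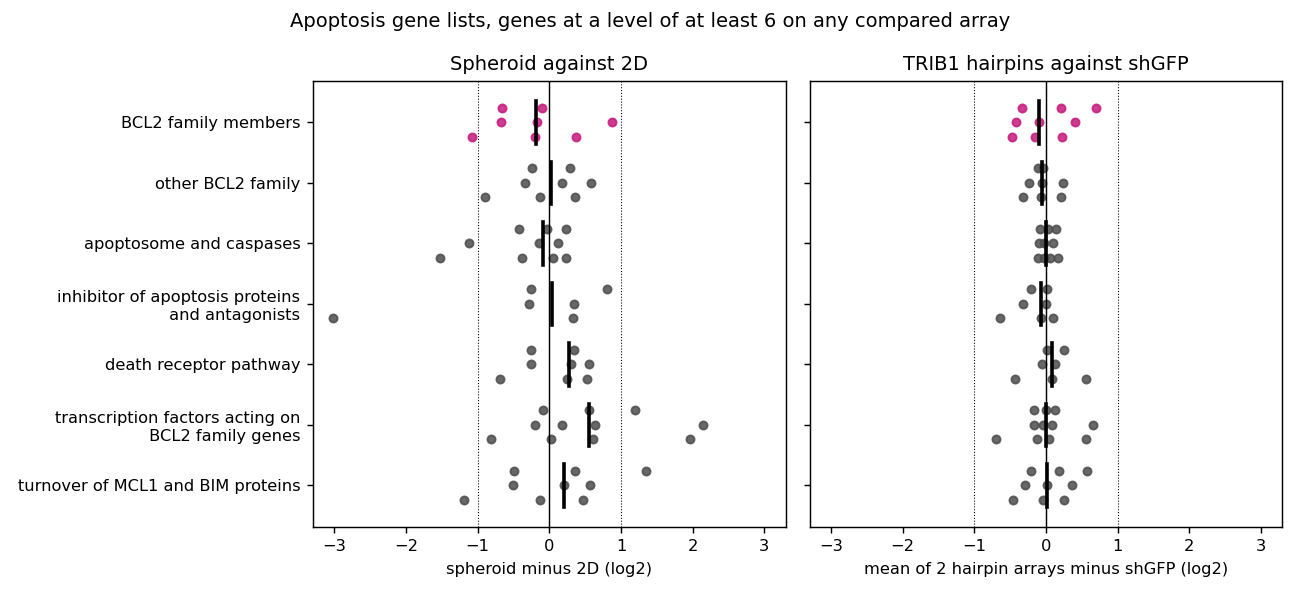
Log2 differences of the genes of 7 apoptosis lists, 1 point per gene at a level of at least 6 on any compared array; left, spheroid minus 2D, and right, the mean of the 2 labelled hairpin arrays minus shGFP. Thick bars are list medians, dotted lines mark 2-fold, the vertical offset of points has no meaning, and the lowest point is BIRC5 at -3.03.

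The genes with profiles most like those of the 3 members with the widest range were sought by the root mean square distance over the 5 arrays, after centring each profile on its mean, among 10834 genes. For BIK these were SNX24 (0.112), BMAL2 (0.113) and PLOD2 (0.115). For BID they were INF2 (0.0797), LNCAROD (0.108) and MYOF (0.115), and INF2 was at 8.49 in 2D and 7.52 in spheroid. For PMAIP1 they were CTSD (0.0273), GNPTG (0.0577) and CERK (0.0655). With 5 arrays and so many genes, close profiles are common, and the distances are descriptions.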

How the data were processed

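RNA from 5 PC-3 samples was labelled as biotinylated cRNA by the standard Affymetrix method, per the labels' protocols. The deposited values are probe set intensities that the authors made with RMA, per the submitters' processing notes, on a linear scale as the values show. Its version and chip definition: not given in the sources used here. RMA includes quantile normalization, which hides a shift common to most genes. Log2 was taken without a pseudocount. Gene names came from the platform annotation of the array. A probe set with several symbols was not used for a gene. Each gene was read from its brightest probe set on average. A gene entered a comparison at a level of at least 6 on any compared array and was counted at a difference of 1. The hairpins were tested with limma 3.58.1 (intensity trend, R 4.3.3, checked on simulated data). That check required recovery of added changes only at a noise far below the observed SD of 0.34 between the hairpin arrays. The smallest adjusted p of limma over all genes was 0.951, so 0 calls do not show that the members are unchanged. Spheroid against 2D had no test. The number of arrays limits the precision. Members and gene lists were chosen with earlier results of these data known. From the wider lists, genes past 2-fold and otherwise the highest and lowest were named. Alternatives changed the filter, probe set rule, centring, reference, fold and trend, and left out each hairpin array.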

Additional observations from a re-analysis of the deposited data

How the results depend on the processing

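For spheroid against 2D, the median over members was -0.29 from each array's median level over a gene's probe sets (below, the probe set median), -0.67 without _s_at and _x_at probe sets (5 members left), -0.23 against the mean of 2D and shGFP, and -0.27 with the second highest probe set, an alternative chosen after seeing the data. The 1 member past 2-fold, BID, became 0 with a level filter of 8, with the probe set median and without _s_at and _x_at probe sets. With the second highest probe set the 1 member was MCL1. At 1.5-fold 3 members were lower and 1 was higher. The share of all genes past 1.5-fold was not computed, so these counts have no background to be read against. For the hairpins, the median turned to 0.22 with a level filter of 8, 0.095 with the probe set median, 0.038 against the mean of 2D and shGFP, 0.22 against 2D and 0.12 with the second highest probe set, and was -0.15 without _s_at and _x_at probe sets. Its sign is thus not settled. Leaving out 1 hairpin array at a time gave -0.065 and -0.023, with no test. Among single genes, BCL2L11 in spheroid changed sign to -0.10 with the probe set median. With the hairpins, BCL2 turned to 0.20 and BID to 0.082 with the second highest probe set, PMAIP1 to -0.019 without shTRIB1-1, and BID to 0.082 (probe set median), 0.15 (mean of 2D and shGFP) and 0.40 (2D). MCL1 turned to -0.13 and BAX to 0.077 (both against 2D). Limma called 0 members under each alternative it was run on. At an unadjusted p under 0.05 it held 1 of 8 members against 2D and 0 members otherwise. In that fit against 2D, 12.4% of all 10612 genes had an unadjusted p under 0.05. No paired analysis was possible because each control condition has 1 array and the labels do not link samples. Low signal limits BCL2.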
